A study of Mus musculus with 4 samples.

Results

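The NANOG binding windows around Id1, Id2 and Id3 were examined in a ChIP-seq (chromatin immunoprecipitation followed by sequencing) series on mouse embryonic stem cells (ESCs). A window was a member if its centre lay within 100 kb of the body of 1 of these genes, a rule that uses position only, and 12 of the 21066 windows of the series qualified: 7 at Id1, 2 at Id2 and 3 at Id3. All 12 reached 0.9 RPKM (a read count divided by window length and by library size) in at least 1 condition, the threshold above which a window is here called bound, as did 16608 windows of the series. The cells were of the ZHBT-O4AID line, strain 129SV, which is Oct4-/- and carries transgenes labelled TetOFF Oct4, CAG Oct4AID and CAG Tir1. Both Oct4 alleles are thus inactive, the TetOFF wild-type Oct4 was silenced with doxycycline at 1 μg/ml in every sample, and OCT4 came from a fusion with an auxin-inducible degron (AID), which, like the TIR1 adaptor it needs, is driven by the constitutive CAG promoter from an integrated transgene. Uninduced cells (2 replicates) were compared with cells treated for 1.5 h with the auxin IAA (indole-3-acetic acid) at 500 μM (2 replicates), all in N2B27 medium with the MEK inhibitor PD03 at 1 μM, the GSK3 inhibitor Chiron at 3 μM and LIF. The comparison asks how NANOG occupancy differs shortly after OCT4 is removed. The replicates are separate immunoprecipitations, and nothing states that they came from separate cultures, so p-values measure only the spread between these libraries. RNA data were not analysed here, so the labelled cell type was not checked against markers and expression of the Id genes is not reported.

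ID proteins are helix-loop-helix factors without the basic region that contacts DNA. They pair with E proteins and keep them from activating genes of differentiation. In ESCs the Id genes are textbook targets of BMP signalling, in which a ligand brings together type I and type II receptors, the receptors phosphorylate SMAD1, SMAD5 and SMAD9, and these enter the nucleus with SMAD4. Forced expression of an Id gene can replace BMP in the support of self-renewal by LIF. NANOG is a homeodomain factor of the pluripotency network, and OCT4 and SOX2 bind DNA as a pair at many of the same enhancers.

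The windows are named by gene and by the distance of their centre from the gene body in the direction of transcription, with a minus sign for upstream. No window lay at the promoter of an Id gene. The centre nearest to an Id1 start was 1313 bp past it, the nearest to an annotated Id3 transcript start 1967 bp away, and the nearest to the Id2 start 22317 bp away, all on the downstream side of the gene. Positions are on GRCm38 (mm10), the build of the authors, counted from 1. Id1 occupies chr2:152736251-152737410 on the plus strand, Id2 chr12:25093799-25096092 on the minus strand and Id3 chr4:136143497-136145755 on the plus strand.

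The central 201 bases of 6 windows are shown: the window that ranked first at its locus by 4-library mean RPKM (Id1 +32.4 kb, Id2 +31.5 kb and Id3 +1.2 kb) and, chosen after their contents were seen, the 3 others that hold a match to the ESRRB motif. They read 5′ to 3′ on the plus strand of the reference, and capitals mark matches to the motifs searched.
Id1 +32.4 kb, chr2:152769743-152769943: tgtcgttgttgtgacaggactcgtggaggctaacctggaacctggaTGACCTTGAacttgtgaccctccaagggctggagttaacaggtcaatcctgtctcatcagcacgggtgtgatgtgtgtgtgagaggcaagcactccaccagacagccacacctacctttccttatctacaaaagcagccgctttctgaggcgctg
Id1 +35.0 kb, chr2:152772309-152772509: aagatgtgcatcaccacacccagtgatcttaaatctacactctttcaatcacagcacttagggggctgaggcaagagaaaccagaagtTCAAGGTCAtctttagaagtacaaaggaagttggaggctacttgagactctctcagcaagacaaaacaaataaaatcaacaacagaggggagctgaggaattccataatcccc
Id2 +20.0 kb, chr12:25073675-25073875: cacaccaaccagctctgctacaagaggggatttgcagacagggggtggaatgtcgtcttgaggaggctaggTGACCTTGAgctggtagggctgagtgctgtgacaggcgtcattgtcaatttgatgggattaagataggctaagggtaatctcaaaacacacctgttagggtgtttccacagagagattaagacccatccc
Id2 +31.5 kb, chr12:25062159-25062359: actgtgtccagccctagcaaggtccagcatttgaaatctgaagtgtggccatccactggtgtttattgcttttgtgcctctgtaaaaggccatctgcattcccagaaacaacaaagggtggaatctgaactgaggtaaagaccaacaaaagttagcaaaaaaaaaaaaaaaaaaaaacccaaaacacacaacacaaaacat
Id3 +1.2 kb, chr4:136146841-136147041: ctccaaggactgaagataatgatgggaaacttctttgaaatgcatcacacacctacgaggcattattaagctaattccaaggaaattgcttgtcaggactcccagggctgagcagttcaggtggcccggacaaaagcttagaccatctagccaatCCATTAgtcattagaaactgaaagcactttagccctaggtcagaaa
Id3 +27.5 kb, chr4:136173200-136173400: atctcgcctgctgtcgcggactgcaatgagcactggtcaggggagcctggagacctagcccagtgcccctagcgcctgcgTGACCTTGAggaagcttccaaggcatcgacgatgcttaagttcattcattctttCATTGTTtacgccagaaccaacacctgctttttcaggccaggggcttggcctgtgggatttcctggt

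The full 351 bases of each window were searched on both strands for 7 motifs. The ESRRB motif TCAAGGTCA, read as TGACCTTGA on the other strand, is named here after an orphan nuclear receptor of the pluripotency network. It was found in 4 of the 12 windows (Id1 +32.4 kb, Id1 +35.0 kb, Id2 +20.0 kb and Id3 +27.5 kb), and in 3.99% of all bound windows. The matches lay 8 to 50 bp from the window centre, on the upstream side in plus-strand coordinates. Both Id1 matches fell in bases that the reference masks as repeats, and those at Id2 and Id3 did not. Of all 663 bound windows with this motif, 41.6% had it in masked bases. The NANOG homeodomain core TAATGG was found in Id3 +1.2 kb and Id1 +74.4 kb, 2 of 12 windows against 20.9% of bound windows. The SOX core CATTGTT stood in Id3 +27.5 kb alone among the members, against 14.3% of bound windows. A KLF motif, GGGCGTG, was present in Id3 +1.2 kb, outside the stretch shown, and in 3.64% of bound windows. The octamer ATGCAAAT (2.96% of bound windows), the SMAD palindrome GTCTAGAC (0.355%) and the STAT3 motif TTCCNGGAA (1.63%) had no match in the 12 windows. With shares this low, a lack of matches in 12 windows says little, and no other SMAD sequence was searched. The other 6 windows held none of the 7 motifs. GC content ran from 44.4% to 57.8% with a median of 48.3%, against a median of 46.2% over bound windows.

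Steps between RPKM values gave the depth behind each value. Uninduced replicate 1 comprised 8236968 reads, uninduced replicate 2 11674801, IAA replicate 1 19634763 and IAA replicate 2 5406307, and 1 read in a window was worth 0.346, 0.244, 0.145 and 0.527 RPKM in this order. The 12 windows held 142 and 311 reads in the uninduced libraries and 642 and 201 reads in the IAA libraries. The libraries also differed as a whole: 1.60% and 2.28% of all reads fell in bound windows in uninduced cells and 3.05% and 3.24% after IAA, and the median log2 change over bound windows was 0.76. An Id window at 0.76 therefore changed as the middle window of the series did. Changes are IAA minus uninduced on the scale log2(RPKM + 0.1), which understates those of low values.

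After IAA the estimated change of NANOG signal was above 0 in each of the 12 windows, from 0.07 to 2.22, with a median of 0.82. Most bound windows were above 0 too, since the lower quartile of their change was 0.30. The change exceeded the 0.76 of the middle bound window in 6 of the 12. The IAA values were both higher than either uninduced value at 8 of the 12 windows, a position shared by 60.5% of bound windows. They lay below at 0, against 4.23% of bound windows, and overlapped at 4. With limma, 1 window, Id3 +27.5 kb, was higher after IAA at an adjusted p under 0.05, where 15.0% of bound windows were, and 0 were lower, where 0.337% were. Without adjustment 6 windows had a p under 0.05, all of them higher, where 33.1% of bound windows were higher and 0.861% lower. When the library medians were made equal, which brings the change of the middle bound window to 0.06, 5 windows took the other sign (Id1 -64.3 kb, Id1 +0.2 kb, Id1 +35.0 kb, Id1 +74.4 kb and Id3 +1.2 kb), as they did after quantile normalization, and 0 passed the test under either scaling.

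**Figure D1:**
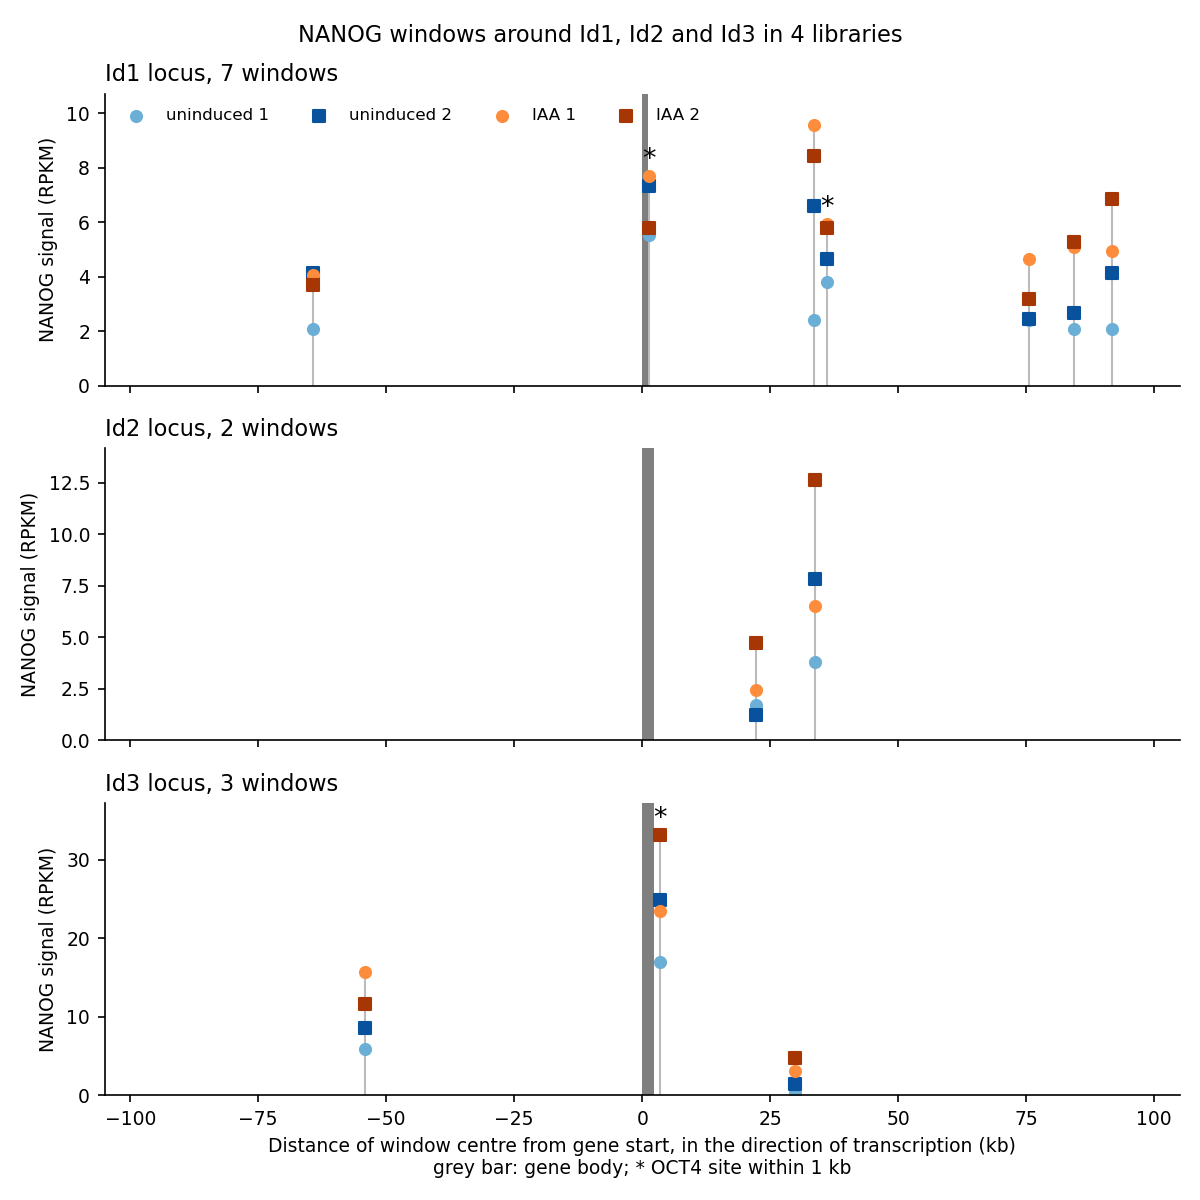
NANOG signal (RPKM, linear axis with its own scale for each locus) at each window of the 3 loci in each of the 4 libraries, plotted at the distance of the window centre from the gene start (kb, in the direction of transcription); grey bars are gene bodies and asterisks mark windows with an OCT4 site within 1 kb. The window just past Id3 carries the highest signal in every library, at 16.9 RPKM or more, and no window stands at a gene start.

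Id1 had the most windows. The 7 bound windows within 100 kb compare with a median of 2 over 21911 protein-coding genes, of which 5.35% had 7 or more. Id3 with 3 was matched or exceeded by 35.4% of genes and Id2 with 2 by 53.1%. This density is a count of called sites and depends on neighbouring genes: 3 of the Id1 windows lie in introns of Bcl2l1, which encodes a survival factor of the BCL2 family, and 1 in an intron of H13, which encodes a signal peptide peptidase.

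The window closest to Id1, Id1 +0.2 kb (chr2:152737389-152737739), is centred 154 bp past the gene, reaches into its last untranslated bases and lies within 1 kb of an OCT4 site. It had 5.53 and 7.32 RPKM (16 and 30 reads) in uninduced replicates 1 and 2 and 7.69 and 5.80 RPKM (53 and 11 reads) in IAA replicates 1 and 2. The libraries of both conditions interleaved, and the means were 6.43 ± 1.26 and 6.74 ± 1.34 RPKM (SD, n = 2). Its log2 change of 0.07 ± 0.43 (SE; limma, adjusted p = 0.918) was the smallest of the 12 and stood at the 16.3rd percentile of bound windows. Pooling reads within a condition gave a fold of 1.11, with an exact 95% interval from counting error alone of 0.746 to 1.65. An increase of more than 1.65-fold thus lies outside the counting error, and the spread between libraries is wider. Pooled folds are scaled by library size only, so here and below they include the shift of the libraries as a whole.

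Past the gene, 2 intergenic windows lie close together. The first, Id1 +32.4 kb (chr2:152769668-152770018), had the highest mean RPKM of the locus over the 4 libraries (6.75, against 6.59 at Id1 +0.2 kb, which was higher in both uninduced libraries) and has no OCT4 site within 1 kb. It had 2.42 and 6.59 RPKM (7 and 27 reads) in uninduced cells and 9.58 and 8.43 RPKM (66 and 16 reads) after IAA. Both IAA values lay above both uninduced values, although uninduced replicate 2 exceeded replicate 1 by 1.41 on the log2 scale, more than the change of 1.15 ± 0.44 (SE; limma, adjusted p = 0.0526). This window missed the threshold, and 74.0% of bound windows changed less or equally. The pooled fold was 1.92 (exact 95% interval 1.27 to 2.95). The second, Id1 +35.0 kb (chr2:152772234-152772584), is flagged for OCT4. Its signal was 3.80 and 4.64 RPKM (11 and 19 reads) in uninduced cells and 5.95 and 5.80 RPKM (41 and 11 reads) after IAA, a change of 0.47 ± 0.45 (SE; limma, adjusted p = 0.444). Its replicates were close, at 4.22 ± 0.59 and 5.87 ± 0.11 RPKM (SD, n = 2), and the conditions did not overlap, but the pooled fold of 1.38 had an interval from 0.863 to 2.24.

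The 3 windows in introns of Bcl2l1 lay farthest downstream. Id1 +74.4 kb (chr2:152811632-152811982), in the active enhancer class, had 2.42 and 2.44 RPKM (7 and 10 reads) and then 4.64 and 3.16 RPKM (32 and 6 reads). Id1 +83.2 kb (chr2:152820422-152820772), also in that class, had 2.08 and 2.68 RPKM (6 and 11 reads) and then 5.08 and 5.27 RPKM (35 and 10 reads). For Id1 +90.5 kb (chr2:152827762-152828112), 598 bp from a start of Bcl2l1, the values were 2.08 and 4.15 RPKM (6 and 17 reads) and then 4.93 and 6.85 RPKM (34 and 13 reads). All 3 were higher in both IAA libraries than in both uninduced ones, and none passed the test, with changes of 0.64 ± 0.52, 1.10 ± 0.49 and 0.96 ± 0.47 (SE) and limma adjusted p-values of 0.368, 0.100 and 0.131. Of these the pooled interval lay above 1 for Id1 +83.2 kb only, at 2.10-fold (1.18 to 3.92). The upstream window, Id1 -64.3 kb (chr2:152671737-152672087) in an intron of H13, had 2.08 and 4.15 RPKM (6 and 17 reads) in uninduced cells and 4.06 and 3.69 RPKM (28 and 7 reads) after IAA. Uninduced replicate 2 was the highest of its 4 libraries, and the change was 0.39 ± 0.50 (SE; limma, adjusted p = 0.584).

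Id2 had 2 windows, both past the end of the gene, toward and within Kidins220, which encodes a membrane scaffold of neurotrophin receptors. Neither is flagged for OCT4 or for a chromatin class. Id2 +31.5 kb (chr12:25062084-25062434), in a Kidins220 intron, was the stronger, with 3.80 and 7.81 RPKM (11 and 32 reads) in uninduced cells and 6.53 and 12.6 RPKM (45 and 24 reads) after IAA. In each condition replicate 2 was well above replicate 1, by 1.02 and 0.94 on the log2 scale, and the conditions overlapped. The change of 0.73 ± 0.43 (SE; limma, adjusted p = 0.210) was close to that of the middle bound window. The intergenic Id2 +20.0 kb (chr12:25073600-25073950) was among the weakest members, with 1.73 and 1.22 RPKM (5 and 5 reads) and then 2.47 and 4.74 RPKM (17 and 9 reads). There the conditions did not overlap, and the change was 1.18 ± 0.58 (SE; limma, adjusted p = 0.134). With 10 pooled uninduced reads its fold of 2.07 had an interval from 0.965 to 4.80, so a change could not be told from counting error at this depth.

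By mean RPKM over the 4 libraries, Id3 held the highest and the lowest of the 12 windows, at 24.6 and 2.40. Id3 +1.2 kb (chr4:136146766-136147116), intergenic and flagged for OCT4, is centred 1186 bp past the gene and ranked 86 of 16608 bound windows by mean RPKM. It had 16.9 and 24.9 RPKM (49 and 102 reads) in uninduced cells and 23.5 and 33.2 RPKM (162 and 63 reads) after IAA. IAA replicate 1 fell below uninduced replicate 2, and the means of 20.9 ± 5.62 and 28.4 ± 6.85 RPKM (SD, n = 2) differed by no more than the spread between replicates. The change was 0.44 ± 0.46 (SE; limma, adjusted p = 0.493), and 31.6% of bound windows changed less or equally. Its 376 reads in all were the most of any member, but its SE was not the smallest of the 12. The pooled fold, in which the deeper library of a condition weighs more, was 1.18 (exact 95% interval 0.960 to 1.47).

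The upstream window Id3 -54.1 kb (chr4:136089172-136089522) is intergenic, 35919 bp from the nearest coding start, that of the ribosomal protein gene Rpl11, and carries no flag. It had 5.88 and 8.54 RPKM (17 and 35 reads) in uninduced cells and 15.7 and 11.6 RPKM (108 and 22 reads) after IAA. Both IAA values were above both uninduced values, and the change was 0.92 ± 0.42 (SE; limma, adjusted p = 0.110). The pooled fold of 1.99 (1.43 to 2.80) was the best bounded of the 4 member folds whose interval lay above 1. These intervals are set against 1, and a change beyond the shift of the libraries as a whole was not tested with them. Pooled intervals were not computed over all bound windows, so whether such intervals are more frequent among the members was not tested.

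Id3 +27.5 kb (chr4:136173125-136173475) lies in an intron of E2f2, a cell cycle transcription factor gene, 906 bp from its start, and rose after IAA. It had 0.35 and 1.46 RPKM (1 and 6 reads) in uninduced cells and 3.05 and 4.74 RPKM (21 and 9 reads) after IAA. The uninduced mean of 0.91 ± 0.79 RPKM (SD, n = 2) was just at the threshold for a bound window, and the IAA mean was 3.89 ± 1.20 RPKM (SD, n = 2). The change of 2.22 ± 0.65 (SE; limma, adjusted p = 0.0135) was exceeded by few bound windows, its percentile being 98.8. Since 1 read is the lowest value listed in any library, the level in uninduced replicate 1 may be lower than shown. The pooled fold was 3.41 with a wide exact 95% interval of 1.47 to 9.19. The call was lost when uninduced replicate 1 was left out (limma, adjusted p = 0.112), as without IAA replicate 1 (0.262) or IAA replicate 2 (0.547), and also with equal library medians (0.256), quantile normalization (0.338) or no variance trend (0.0541).

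**Figure D2:**
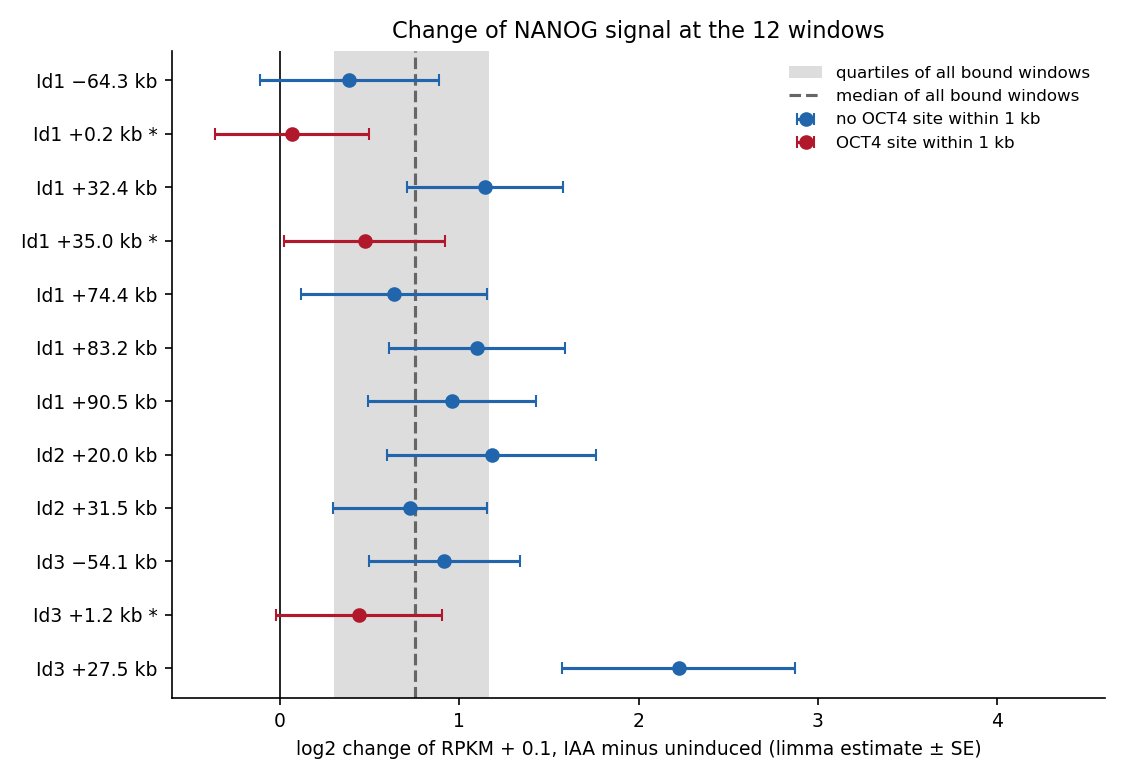
Log2 change of RPKM + 0.1 (IAA minus uninduced) for each of the 12 windows, as the limma estimate with its SE (horizontal bars, 2 libraries a group); the shaded band and dashed line are the quartiles (0.30 and 1.16) and median (0.76) of 16608 bound windows. Red points with an asterisk have an OCT4 site within 1 kb and lie at 0.07, 0.44 and 0.47, below the median of bound windows.

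Averaged over its windows, the Id1 locus had 2.92 and 4.57 RPKM in uninduced replicates 1 and 2 and 5.99 and 5.57 RPKM after IAA. The Id3 locus was at 7.72 and 11.6 RPKM and then at 14.1 and 16.5 RPKM. At both, the IAA libraries lay above the uninduced ones, with log2 changes of 0.65 and 0.68. A two-sided exact permutation test gave p = 0.33 for each, the smallest p that 2 libraries against 2 allow. The Id2 locus went from 2.77 and 4.51 RPKM to 4.50 and 8.70 RPKM, and here IAA replicate 1 and uninduced replicate 2 were nearly equal (change 0.81, exact permutation p = 0.67). The changes of Id1 and Id3 were near the shift of all bound windows, and with library medians made equal they were -0.05 and -0.02, while Id2 was at 0.11.

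The windows flagged for OCT4, whose sites were taken by the authors from published data, changed less than the other members in these estimates. They were 3 of 12 (25.0%, against 23.7% of bound windows), and their changes of 0.07, 0.44 and 0.47 compare with a range of 0.39 to 2.22 and a median of 0.96 over the 9 others. The same medians over all bound windows were 0.39 with the flag and 0.86 without it. The Id loci follow the split of the series, and a difference particular to them was not tested. At Id1 the mean of the 2 flagged windows changed by 0.25 and overlapped between conditions, and the mean of the 5 others changed by 0.88 and did not. At Id3 the flagged window changed by 0.44 with overlap, and the mean of the 2 others by 1.13 without it. Overlap does not mark the flag, however. The mean of the 3 flagged windows over all loci changed by 0.39 without overlap. The flagged Id1 +35.0 kb did not overlap on its own either.

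A share within 1 library does not depend on how that library is scaled. Of the reads in the Id1 windows, those in the 2 flagged windows were 45.8% (95% Wilson interval 33.7% to 58.3%) and 37.4% (29.6% to 45.9%) in uninduced replicates 1 and 2. After IAA the shares were 32.5% (27.4% to 38.1%) and 29.7% (20.5% to 40.9%). At Id3 the flagged window held 73.1% (61.5% to 82.3%) and 71.3% (63.4% to 78.1%) of the locus' reads in uninduced cells and 55.7% (49.9% to 61.3%) and 67.0% (57.0% to 75.7%) after IAA. At both loci the 2 IAA shares were the lowest of the 4, and the intervals overlapped between conditions for all pairs of libraries other than IAA replicate 1 with either uninduced library at Id3. Over all 3 loci the share was 51.0% ± 3.51 in uninduced cells and 41.1% ± 1.71 after IAA (SD, n = 2). The same share over all bound windows was not computed. Flagged windows of the whole series changed less too (median 0.39 against 0.86), so a fall particular to the Id loci is not shown. In two-sided exact permutation tests p was 0.33 for Id1, for Id3 and for all 3 loci, which is the smallest it can give. Intervals cover counting error only.

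**Figure D3:**
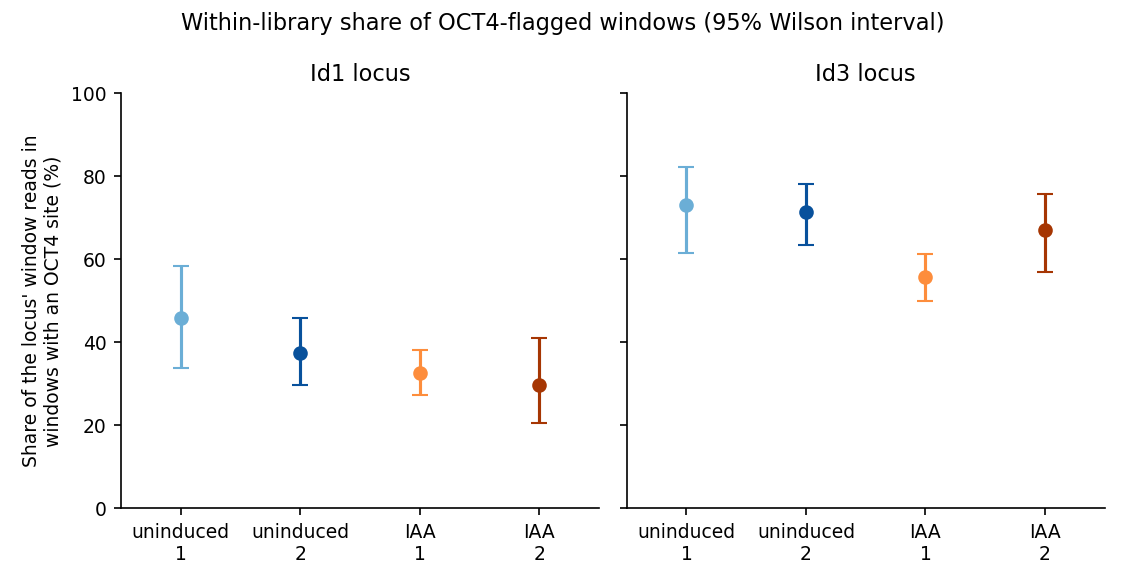
Share of the reads in a locus' windows (percent, axis from 0 to 100) that fell in windows with an OCT4 site within 1 kb, for each library at the Id1 and Id3 loci, with 95% Wilson intervals for counting error. The IAA points lie below the uninduced points at both loci, and at Id3 the interval of IAA replicate 1 is clear of both uninduced ones.

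Ranks within a library do not depend on its scale either. Id3 +1.2 kb stayed between the 98.9th and 99.6th percentile of bound windows in all 4 libraries. The flagged Id1 +0.2 kb was at 91.6 and 89.3 in uninduced replicates 1 and 2 and at 84.3 and 70.3 after IAA. Id1 +35.0 kb was at 81.0 and 74.9 and then at 74.8 and 70.3. In these last 2 the IAA ranks were both below the uninduced ones. At Id1 +35.0 kb this was only just so, with 74.83 in IAA replicate 1 and 74.90 in uninduced replicate 2. Both windows rested on 11 reads in IAA replicate 2, and ranks carry counting error. How many bound windows separate in rank was not counted. Id3 +27.5 kb moved up, from 2.45 and 16.5 to 27.6 and 59.0, and Id1 +83.2 kb went from 47.6 and 45.9 to 67.2 and 65.2.

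**Figure D4:**
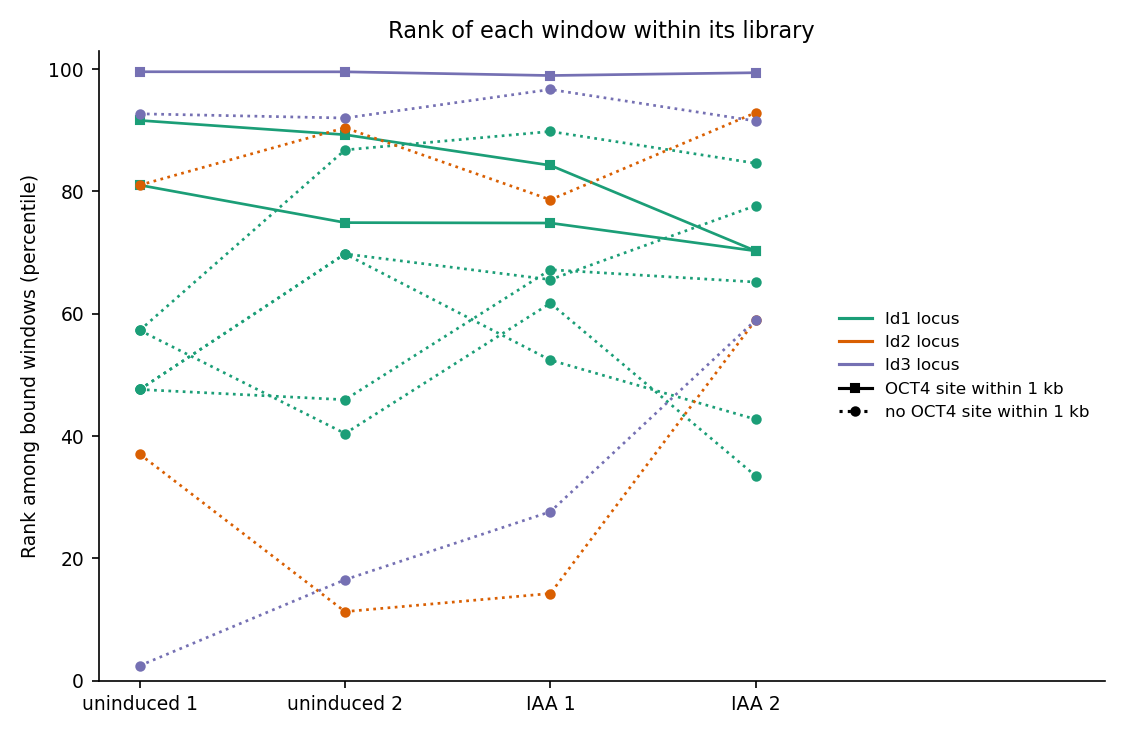
Percentile of each window's RPKM among the 16608 bound windows of the same library, with lines that join the same window across the 4 libraries (coloured by locus, solid with squares for an OCT4 site within 1 kb, dotted with circles for none); the order of libraries carries no trend. Id3 +1.2 kb stays near the top in all 4, and Id1 +32.4 kb stands at 57.3 and 86.8 in the uninduced replicates.

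Replicates set the precision of all these values. Uninduced replicate 2 was above uninduced replicate 1 in 11 of the 12 windows, with a median gap of 0.54 on the log2 scale, in the direction of the shift of the whole library. IAA replicate 2 was above IAA replicate 1 in 6 of 12, with a median gap of 0.01. When uninduced replicate 2 was left out, 6 of the 12 windows passed the test, where 40.7% of bound windows were then higher. Without uninduced replicate 1, 0 members passed, where 10.5% of bound windows did as higher, and without either IAA library 0 members and 0 higher windows of the whole table passed (1402 or more at an unadjusted p under 0.05).

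The 4 windows with the ESRRB motif changed by 1.15, 0.47, 1.18 and 2.22, in the order Id1 +32.4 kb, Id1 +35.0 kb, Id2 +20.0 kb and Id3 +27.5 kb. Over all bound windows those with the motif had a median change of 0.88 (quartiles 0.49 and 1.28), and the 15945 without it 0.75. This is a description of sequence and signal together, and binding of ESRRB was not measured.

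The rest of the pathway was read at the bound window with the highest mean RPKM within 100 kb of each of 23 genes: the fourth family member Id4, E protein genes, and the ligands, receptors, transducers and inhibitors of BMP signalling. Of these, 20 had a bound window, and Bmp2, Nog (an extracellular BMP antagonist) and Tcf3 (an E protein gene) had none. With limma 6 of the 20 were higher at an adjusted p under 0.05 (15.0% of bound windows were) and 0 were lower (0.337%). The IAA libraries were both higher than either uninduced library at 14 (60.5% of bound windows) and both lower at 1 (4.23%), and the median change was 0.87, against 0.76 over bound windows. These are unlike sets. Each pathway window was picked for a high mean that includes the IAA libraries, and the bound windows were not picked. None of the 6 passed with equal library medians, after quantile normalization or without the variance trend.

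Id4 itself changed by 0.80 ± 0.44 (SE; limma, adjusted p = 0.181) at a window 15766 bp from the gene, from 3.46 and 5.12 RPKM to 7.40 and 7.38 RPKM. Its conditions did not overlap, as at Id1 +32.4 kb. The highest changes were at Bmpr1a, a type I BMP receptor gene (1.65 ± 0.42, adjusted p = 0.00536), at Smad9, a transducer gene (1.56 ± 0.50, adjusted p = 0.0225), and at Acvr1, another type I receptor gene (1.50 ± 0.42, adjusted p = 0.0105). Bmpr1a went from 3.11 and 7.56 RPKM to 14.2 and 16.9 RPKM, Smad9 from 1.73 and 2.20 to 4.79 and 7.38 RPKM, and Acvr1 from 3.80 and 7.56 to 16.7 and 14.2 RPKM. These windows carry no OCT4 flag, and they lay above the other 2 Id3 windows and all Id1 and Id2 windows in the size of the estimated change, short of Id3 +27.5 kb. The other 3 that passed, named after their values were seen, were Smad7, an inhibitor (1.27, adjusted p = 0.0377), Smad1 (1.25, adjusted p = 0.0336) and the type II receptor gene Bmpr2 (1.20, adjusted p = 0.0490). Among these, the Smad7 and Bmpr2 windows are flagged for OCT4, and that of Smad1 is not.

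At the other end, the window of Smurf2, an E3 ligase gene that acts against SMADs, had 6.92 and 7.56 RPKM in uninduced cells and 4.50 and 5.27 RPKM after IAA, a change of -0.56 ± 0.44 (SE; limma, adjusted p = 0.346). It lies 98958 bp from the gene and is flagged for OCT4. The type II receptor gene Acvr2a (-0.37 ± 0.56) and the type I receptor gene Bmpr1b (-0.27 ± 0.63) also had estimates below 0, with 3 reads each in IAA replicate 2 and overlap between conditions. The windows of Acvr2a and Bmpr1b carry no OCT4 flag.

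By the distance between the 4 library values of log2 mean RPKM over bound windows, the listed gene nearest to Id1 was Acvr1 (Euclidean distance 0.252), the nearest to Id2 was Tcf12, an E protein gene (0.614), and the nearest to Id3 was Smad7 (0.447). Tcf4, another E protein gene, was almost as near to Id1 (0.259) and came next for Id2 (0.678). Smad7 had 7.40 and 8.93 RPKM in uninduced cells and 16.4 and 15.6 RPKM after IAA on this mean scale, beside 7.72, 11.6, 14.1 and 16.5 RPKM at Id3. The 4 libraries are the same for every gene, so this likeness includes the difference between whole libraries.

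**Figure D5:**
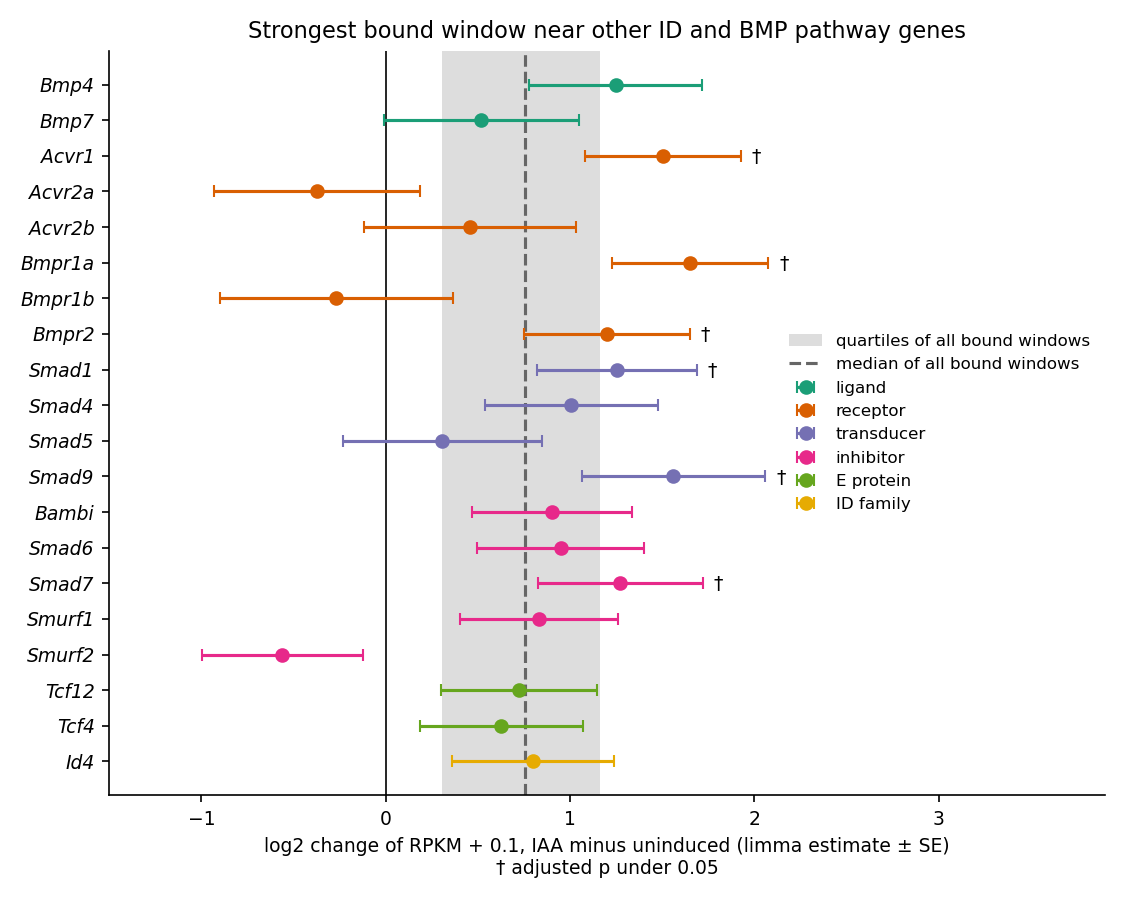
Log2 change of RPKM + 0.1 (IAA minus uninduced; limma estimate with its SE, 2 libraries a group) at the strongest bound window within 100 kb of each of 20 genes, coloured by role, with the quartiles and median of bound windows shaded and dashed; a dagger marks an adjusted p under 0.05. Bmpr1a, Smad9 and Acvr1 lie highest, and Smurf2, Acvr2a and Bmpr1b are below 0.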

How the data were processed

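Per the labels, NANOG was immunoprecipitated with a Bethyl antibody (the antibody list of the study names an eBioscience one, without saying for which assay), and libraries were made with the ThruPLEX kit. Per the study's methods and the submitters' processing notes, the authors mapped reads with Bowtie2 2.3.4.3 to GRCm38 (mm10), removed duplicates with SAMtools, called peaks with MACS2 on the reads of both conditions together and computed the deposited RPKM values with DiffBind over 351 bp windows centred on summits. No spike-in scaled these values, so each is relative to its library. A further deposited table gave RPKM per condition (each the mean of 2 libraries) and flags for an OCT4 site within 1 kb and for promoter, enhancer and repressed classes. The flags were read as the authors gave them.

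The 12 windows and the gene and motif lists were chosen with earlier results of these data known. All RPKM values were whole multiples of the smallest in their library (100% within 0.01), which gave reads per window. No window was listed under 1 read. limma 3.58.1 (R 4.3.3; lmFit, eBayes with a variance trend, two-sided) was fitted to log2(RPKM + 0.1) over 16608 windows with at least 0.9 RPKM in either condition, with Benjamini-Hochberg adjustment over all of them and a threshold of 0.05. Locus means and read shares were compared by exact permutation over libraries. Pooled folds merged the reads of a condition and took an exact binomial interval of the read split. Windows described in full were, at each locus, that with the highest mean RPKM, the nearest, those with the highest and lowest change and those flagged for OCT4. Pathway genes named were the 3 highest, the 3 lowest, Id4 and the gene nearest in pattern to each Id gene. Genes were placed with GENCODE (mouse release 21) and, for the Id2 body, RefSeq, and sequences were read from the GRCm38.p6 reference. The test was tried on simulated data first. Same-numbered libraries did not deviate together (r = 0.005 over bound windows), so the numbers were not used as pairs. The labels give no batch. Analyses used Python 3.11.15 (pandas 2.3.3, numpy 2.4.6, pysam 0.24.0, scipy 1.17.1 and matplotlib 3.10.9).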

Additional observations from a re-analysis of the deposited data

How the results depend on the processing

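Depth was low at single windows: median coverage of the 12 was 7 reads in uninduced replicate 1, 18 in replicate 2, 38 in IAA replicate 1 and 11 in its replicate 2. The number of Id windows that were higher with limma was 1, and it was 0 with equal library medians, 0 after quantile normalization, 0 without the variance trend, 2 with voom on recovered reads (chosen after seeing the data) and 0 to 6 when 1 library was left out. Over the whole table the 2493 higher windows became 47, 0 and 157 under the first 3 of these settings, and 0 to 6761 with a library left out. The 56 lower windows became 198, 1 and 0, and 0 to 140. The 6 higher pathway windows became 0, 0 and 0, and 0 to 12, and the 0 lower ones became 1 (Smurf2) with equal medians. The counts at 0 in these settings went with 1164 higher windows at an unadjusted p under 0.05 over the table after quantile normalization, and 131 lower ones without the trend.

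With equal library medians and after quantile normalization the locus means took the other sign, at -0.050 and -0.010 for Id1 and -0.019 and -0.011 for Id3. So did Id1 -64.3 kb (-0.31 and -0.28), Id1 +0.2 kb (-0.63 and -0.60), Id1 +35.0 kb (-0.22 and -0.17), Id1 +74.4 kb (-0.062 and -0.036) and Id3 +1.2 kb (-0.26 and -0.24). With 1 library left out the means ran from 0.33 to 0.96 for Id1, 0.34 to 1.27 for Id2 and 0.39 to 0.97 for Id3. Left-out libraries turned Id1 -64.3 kb to -0.10 (range -0.10 to 0.87), Id1 +0.2 kb to -0.13 (-0.13 to 0.27), Acvr2a to 0.080 (-0.82 to 0.080) and Bmpr1b to 0.17 (-0.70 to 0.17). Pseudocounts of 0.01 and 0.5 and the use of all windows turned no direction at the 12 windows and ended no call there, and Bmpr2 missed the threshold under each of the 3. The causes were not tested.

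With the replicate number as a block the Id windows passing the test were 2, Id3 +27.5 kb and Id1 +32.4 kb. The block moved no other count by over 1.5 times. Same-numbered libraries share only a number. The 2 planned count-model alternatives were not run, and voom on recovered reads was added in their place.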
